A study of Mus musculus with 9 samples.

Results

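Macrophages and other leukocytes were followed through 10 genes, Tyrobp, Fcer1g, Csf1r, Cd14, C1qa, C1qb, Cd68, Laptm5, Ptprc and Coro1a, in RNA of newborn mice with and without the Glis3 mutation. The genes were found by name among the probes of the postnatal arrays, where 10 of 10 had at least 1 probe, out of 20922 genes measured in all. On postnatal day 3 (PND3), RNA of 2 Glis3zf/zf mutant pups and RNA of 2 wild-type (WT) pups, all of strain C57BL/6 and labelled as pancreas, was pooled by genotype. Each of 2 Agilent 2-colour arrays received both pools. Mutant RNA carried the dye Cy3 on the first and Cy5 on the second, and the arrays are named here the Cy3 array and the Cy5 array after the dye of the mutant RNA. The labels give no restriction of the mutation to a tissue or cell type. The arrays repeat the same 2 RNA pools and so form a technical pair. With 1 pool per genotype no p-value can be given, and the ratios describe these pools.

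Tissue macrophages settle in organs before birth and depend on the growth factor receptor Csf1r, which binds Csf1 and Il34. They sense immune complexes, lipids and damaged cells through surface receptors that have no signalling tail of their own and pair with the small adaptors Tyrobp (also called DAP12) and Fcer1g, whose immunoreceptor tyrosine-based activation motif (ITAM) recruits the kinase Syk. Resident macrophages are also a main source of the C1q chains that open the classical complement pathway, whereas Ptprc (CD45), Laptm5 and Coro1a are made by nearly all white blood cells.

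The arrays were first checked against the tissue label. The share of spots well above background was 72.8% in the dimmest channel and 76.6% in the brightest, and no spot was saturated. Of 14 pancreatic hormone and enzyme genes, 9 were measured, with a median scanner signal of 43.5 in the dimmer genotype and a highest of 415, against a median of 8372 for 10 kidney nephron genes and 568 for all genes. Probes differ in binding, so these signals are no measure of relative amounts, but the pancreatic markers were dim or not measured in both pools. The leukocyte genes are therefore described as those of the pools, not as those of pancreas. The targeted gene Glis3 had a log2 ratio of -0.32, and its probe passed the scanner's background test for WT RNA on both arrays but for mutant RNA on neither. The position of the probe relative to the mutation is not known here, so this value does not check the genotype.

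The 10 genes were covered by 18 probes on 27 spots per array, of which 16 probes were well above background in both genotypes on both arrays. The other 2 were probes of Ptprc. A gene was represented by its brightest probe, whose raw signal was 3.02 to 51.7 times the local background. Ratios are log2 of mutant over WT after background correction and intensity-dependent (loess) normalization, so a negative value is a lower signal in the mutant pool. The threshold for a count was a log2 ratio of 0.32 in size, in the same direction on both arrays.

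Of the 10 genes, 6 were lower in the mutant pool on both arrays by any amount, 1 was higher on both, and 3 had opposite signs on the arrays. Among all genes measured, 37.9% were lower on both arrays and 30.8% were higher on both. The adaptor Tyrobp was the 1 gene past the threshold of 0.32 in the lower direction, where 2.94% of all genes were, and no member was past it in the higher direction, where 1.84% of all genes were. No member reached 2-fold on both arrays, as 0.158% of all genes did in the lower and 0.0335% in the higher direction. In the scanner software's own ratios Tyrobp was again the 1 gene past the threshold in the lower direction, where 5.94% of all genes were, and none was past it in the higher direction, where 4.22% were. The median log2 ratio of the 10 was -0.16, with -0.23 on the Cy3 array and -0.11 on the Cy5 array, against -0.01 for all genes. In these bulk pools, fewer cells of a type and less RNA per cell cannot be told apart. Taken on a single array, the count was 2 in each case, Tyrobp with Fcer1g on the Cy3 array, where 6.15% of all genes were past the threshold in the lower direction, and Tyrobp with Coro1a on the Cy5 array, where 5.17% were. With each array centred on its median in place of loess, 4 of the 10 were counted (Tyrobp, Fcer1g, Coro1a and Ptprc), where 9.79% of all genes were, and none was past the threshold in the higher direction, where 0.65% were. That scaling shifted the median over all genes to -0.11 and the share of calls that were lower from 61.4% to 93.8%.

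**Figure D1:**
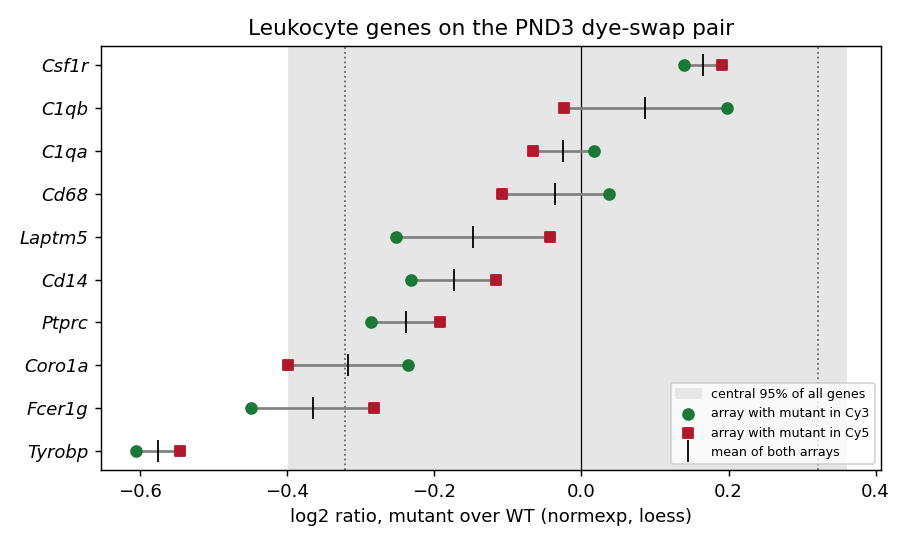
Log2 ratio of mutant over WT (horizontal axis) for each of the 10 leukocyte genes, with a point for each array and a tick for their mean; the grey band holds the central 95% of all genes and dotted lines mark the threshold of 0.32. Tyrobp lies lowest at -0.58 and outside the band, and Csf1r lies highest at 0.16 but at -0.02 when each array is centred on its median.

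The ITAM adaptors stood lowest. Tyrobp, which carries the signal of Trem2 and other receptors of myeloid and natural killer cells, had scanner signals of 1259 for mutant and 1974 for WT RNA on the Cy3 array. On the Cy5 array they were 1196 and 1779. The mutant pool was lower on both arrays, with log2 ratios of -0.61 and -0.55, a mean of -0.58 or 1.49-fold lower. Of all genes measured, 0.889% had a lower mean ratio. Fcer1g, the gamma chain shared by the activating Fc receptors and by the IgE receptor of mast cells, had signals of 1645 for mutant and 2199 for WT RNA on the first array and of 1489 and 1855 on the second. Its ratios were -0.45 and -0.28, a mean of -0.37 or 1.29-fold lower, and the Cy5 array value was short of the threshold. A second, dimmer probe of Fcer1g gave -0.38 and -0.41, so both probes were lower on both arrays, and with the probes of a gene averaged Fcer1g joined Tyrobp past the threshold on both, where 2.42% of all genes then were.

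The receptors Csf1r and Cd14 differed in direction. Csf1r, the receptor kinase on which macrophage survival depends, had signals of 1878 for mutant and 1638 for WT RNA on the Cy3 array, and of 1700 and 1518 on the other. It was the highest of the 10, with ratios of 0.14 and 0.19 and a mean of 0.16, short of the threshold. Its other 2 probes stood at 0.31 and 0.14 and at 0.09 and 0.02, so 3 of 3 probes were higher in the mutant pool on both arrays after loess, whereas the dimmest was 0.24 and -0.05 in the scanner software's own ratios. With median centring the mean of Csf1r was -0.02, which is 0.09 above the median of all genes on that scale. Cd14, the co-receptor that hands lipopolysaccharide to Tlr4, had signals of 653 and 751 in mutant and WT on the first array and of 583 and 638 on the second. It was lower on both arrays, at -0.23 and -0.12, short of the threshold.

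The complement chains showed no common direction. C1qa had signals of 1402 for mutant and 1364 for WT RNA on the Cy3 array, and of 1219 and 1273 on the other. Its ratios of 0.02 and -0.07 had opposite signs. C1qb had signals of 1251 and 1123 on the first array and of 1078 and 1046 on the second, with ratios of 0.20 and -0.02. The difference of 0.22 between the arrays was the largest among the 10 genes, and in the scanner software's ratios C1qb was above 0 on both arrays, at 0.16 and 0.04.

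Of the lysosomal proteins, Cd68 had opposite signs on the arrays and Laptm5 was lower on both. Cd68, a heavily glycosylated membrane protein of macrophage lysosomes, had signals of 410 for mutant and 413 for WT RNA on the Cy3 array, and of 356 and 369 on the other. Its ratios were 0.04 and -0.11. Laptm5, a lysosomal membrane protein of blood cells, was the dimmest of the 10 brightest probes, with signals of 141 and 180 on the first array and of 142 and 145 on the second. It was lower on both, at -0.25 and -0.04, and its second probe gave -0.31 and -0.02. On both probes the Cy3 array therefore carried nearly all of the difference.

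Ptprc and Coro1a, made by all white blood cells rather than by macrophages alone, were lower on both arrays. Coro1a, which binds actin beneath the leukocyte membrane, had signals of 1908 for mutant and 2309 for WT RNA on the Cy3 array, and of 1651 and 2121 on the other. Its ratios were -0.24 and -0.40, and those of a second probe were -0.22 and -0.12. Ptprc, the receptor phosphatase CD45, was measured by a probe spotted 10 times on each array, which gives the spread of repeated spots. On the Cy3 array the mutant signals ran from 812 to 912 and the WT signals from 1008 to 1126. On the other array they ran from 734 to 825 and from 861 to 960, so the pools did not overlap on either. The log2 ratio was -0.29 ± 0.06 (SD, 10 spots) on the first array and -0.19 ± 0.06 (SD, 10 spots) on the second, lower at 10 of 10 spots on each. A second Ptprc probe above background gave -0.10 and -0.18. Repeated spots share 1 pool of RNA per genotype and measure the array alone, not the spread between animals.

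**Figure D2:**
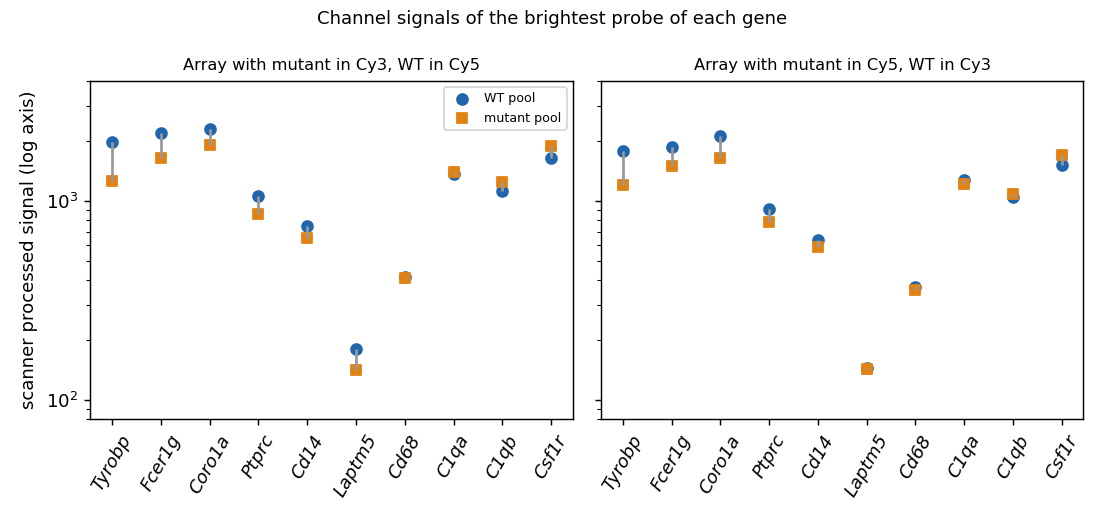
Scanner processed signal (log axis) of the brightest probe of each gene in the WT pool (circles) and the mutant pool (squares), on the Cy3 array (left) and on the Cy5 array (right). The gap is widest for Tyrobp, 1259 against 1974 and 1196 against 1779, and the mutant square is above the WT circle on both arrays for Csf1r and C1qb.

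**Figure D3:**
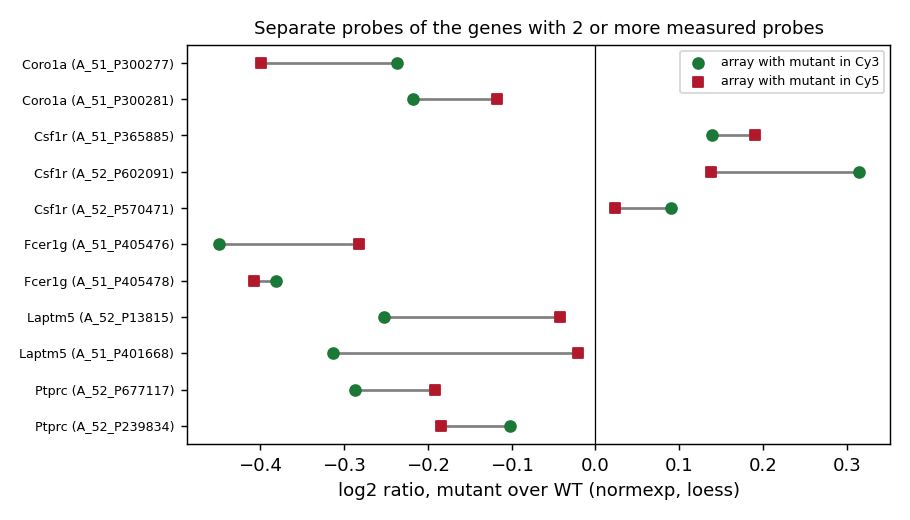
Log2 ratio of mutant over WT (horizontal axis) on each array for the separate probes of the 5 genes with more than 1 measured probe. All probes of Fcer1g, Coro1a, Laptm5 and Ptprc shown lie below 0 on both arrays, and the 3 probes of Csf1r lie above 0 on both after loess, although with median centring its mean from the brightest probe was -0.02.

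The precision of a single spot can be read from the 204 probes that were measured and spotted 10 times. Their median SD of the log2 ratio was 0.06 on each array, and 9 in 10 had an SD up to 0.09 on the Cy3 array and 0.08 on the other. The ratios of Tyrobp, Fcer1g, Coro1a, Ptprc and Cd14 on each array lay farther from 0 than that SD, as those of Csf1r did. The mean ratios of all genes had quartiles of -0.11 and 0.09, so passing that SD alone does not set a gene apart. The difference between the 2 arrays ranged from 0.05 to 0.22 over the 10 genes, with a median size of 0.13, against 0.11 for all genes. In 0 of 10 was it above the 95th percentile of all genes, 0.32, which 5.0% of all genes exceed by construction. In 6 genes the value was higher on the Cy5 array and in 4 it was lower, so the arrays differed for single genes without a shared sign. Ordered by mean ratio, the genes ran Tyrobp, Fcer1g, Coro1a, Ptprc, Cd14, Laptm5, Cd68, C1qa, C1qb and Csf1r. The array values of Tyrobp did not overlap those of Fcer1g, and each later gene overlapped the gene before it.

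The regulatory sequence upstream of these genes can be shown for some of them. The transcription factor Spi1 (PU.1) binds the purine-rich core of ETS sites and is required for the macrophage lineage. From RefSeq's promoter table for GRCm38.p6, 8 start sites of 6 of the 10 genes were used. Windows of Tyrobp, C1qa, Csf1r and Cd14 were not examined, so the counts below do not cover these genes. Below are the 250 bases before the start of 2 genes that were lower in the mutant pool on both arrays, Fcer1g and Coro1a, and of 2 with opposite signs on the arrays, C1qb and Cd68, written 5′ to 3′ in the direction of transcription. Capitals mark the letters AGGAAG or, on the other strand, CTTCCT.
Fcer1g (chr1:171234350-171234599, minus strand): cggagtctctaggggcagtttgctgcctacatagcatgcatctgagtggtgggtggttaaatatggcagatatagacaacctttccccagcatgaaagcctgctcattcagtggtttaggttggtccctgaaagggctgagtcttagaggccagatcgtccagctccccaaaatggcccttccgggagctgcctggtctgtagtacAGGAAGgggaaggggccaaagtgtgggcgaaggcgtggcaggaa
Coro1a (chr7:126704817-126705066, minus strand): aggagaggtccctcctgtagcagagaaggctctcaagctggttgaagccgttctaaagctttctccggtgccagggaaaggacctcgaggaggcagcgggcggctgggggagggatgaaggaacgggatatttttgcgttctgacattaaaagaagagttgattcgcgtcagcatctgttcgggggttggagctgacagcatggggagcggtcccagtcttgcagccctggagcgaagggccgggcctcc
C1qb (chr4:136886201-136886450, minus strand): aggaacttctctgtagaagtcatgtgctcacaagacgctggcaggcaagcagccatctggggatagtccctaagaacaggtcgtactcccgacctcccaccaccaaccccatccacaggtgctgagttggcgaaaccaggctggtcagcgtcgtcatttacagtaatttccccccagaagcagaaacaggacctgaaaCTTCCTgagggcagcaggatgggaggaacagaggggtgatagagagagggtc
Cd68 (chr11:69666171-69666420, minus strand): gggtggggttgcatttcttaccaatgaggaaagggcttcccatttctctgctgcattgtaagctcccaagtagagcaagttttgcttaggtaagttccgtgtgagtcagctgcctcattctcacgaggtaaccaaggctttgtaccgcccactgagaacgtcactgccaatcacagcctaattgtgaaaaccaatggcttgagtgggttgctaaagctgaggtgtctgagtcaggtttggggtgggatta
The letters occurred once in the window of Fcer1g and of C1qb and not in the windows of Cd68 and of this start of Coro1a. The other start of Coro1a, not printed, held them once. Over the 8 start sites used, 6 windows held them, as did 29.5% of all 32851 promoter windows of that length. The 2 windows of Ptprc overlap. A match is a description of the letters and not a binding site. The windows with a match belonged to Fcer1g, Coro1a, Laptm5 and Ptprc, lower on both arrays, and to C1qb, with opposite signs. Spi1 itself, named for its role, gave a log2 ratio of -0.05 from a dim probe with signals of 23.6 to 27.9.

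Genes of the same cells and pathways were read from gene lists. Beside the list counts here and below, 37.9% of all genes were lower on both arrays and 30.8% were higher on both. Past the threshold were 2.94% of all genes in the lower and 1.84% in the higher direction. Of 25 further macrophage and monocyte genes 25 were measured. Of these, 19 were lower on both arrays, 1 was higher on both and 5 had opposite signs, with a median of -0.12. The inhibitory Fc receptor Fcgr2b was the 1 gene past the threshold, at -0.41 and -0.52, with signals of 500 and 422 for mutant against 697 and 619 for WT RNA. On a single array the count was 3 for the Cy3 array and 4 for the Cy5 array, beside 6.15% and 5.17% of all genes, and with median centring it was 7, beside 9.79% of all genes. Adgre1, an adhesion receptor used to mark mouse macrophages and named for that role, stood at -0.18 and -0.29, and the fractalkine receptor Cx3cr1 at -0.19 and 0.23. The summed signal of the 25 genes was 44439 and 39419 for mutant against 51253 and 46148 for WT RNA on the 2 arrays, and the lysozyme gene Lyz2 alone gave 17532 and 16367 of the former and 21618 and 19652 of the latter. That of the 10 members was 11406 and 10195 against 13003 and 11649.

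Partners of the members varied in direction. Those short of the threshold are named for their roles. Of 14 measured ITAM partners and signalling genes, 10 were lower on both arrays and 2 were past the threshold. These 2 were the Src family kinase Fgr at -0.38 and -0.51 and the adaptor Lcp2 (SLP-76) at -0.34 and -0.39. The 10 include the dim gene Trem1, named after its values were seen, which met the filter through the WT pool alone. Trem2, the lipid receptor that signals through Tyrobp, stood at -0.03, and the kinase Syk at 0.07. The phospholipase Plcg2, which acts downstream of Syk, stood at -0.63 and -0.24, past the threshold on the Cy3 array alone, and was past it on both arrays with median centring. The Csf1r ligands Csf1 and Il34 stood at 0.16 and -0.12, and 0 of 8 genes in that list, which had a median of -0.03, were past the threshold. With median centring 1 of the 8 was past it lower, the receptor kinase Kit, and the list's median was -0.15. C1qc, the remaining chain of C1q, stood at -0.13, with array values of 0.00 and -0.25, and 0 of 12 complement genes were past the threshold at a median of -0.07. With median centring 2 of the 12 were past it lower, C2 and Cfb, at a median of -0.19. Among 9 measured genes of lipopolysaccharide sensing the median was -0.09, none was past the threshold (1 was, lower, in the scanner software's ratios), and Tlr4, the receptor Cd14 serves, stood at -0.01. Lbp, which carries lipopolysaccharide to Cd14, stood at 0.38 and 0.24.

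Genes shared by white blood cells and genes of antigen presentation had medians below 0. Of 20 pan-leukocyte cytoskeleton and signalling genes, 14 were lower on both arrays and 4 higher on both, with a median of -0.18. Of all genes, 37.9% were lower and 30.8% higher on both. The integrin chain Itgal was the 1 past the threshold, at -0.37 and -0.44, beside 2.94% of all genes. In the scanner software's ratios 2 of the 20 were past it lower, beside 5.94% of all genes. With median centring 4 were, at a median of -0.30, beside 9.79% of all genes. Of 9 genes in the list of class II antigen presentation, 6 were lower and 3 higher on both arrays, with a median of -0.17. The 6 lower were H2-Aa, H2-Ab1, H2-Eb1, H2-DMa, H2-DMb1 and Cd74. The 3 higher were Ciita, Itgax and Batf3, which are not class II chains. All but Cd74 are named after their values were seen. The invariant chain Cd74, which escorts class II molecules, was past the threshold at -0.69 and -0.68, with signals of 553 and 502 for mutant against 929 and 819 for WT RNA. With median centring 2 of the 9 were past it lower, at a median of -0.37. T and natural killer genes had a median of -0.02 over 11 measured, B cell genes -0.07 over 6 and neutrophil genes -0.05 over 9, and 0 genes of these 3 lists were past the threshold in either direction. Part of these lists was dim, such as Cd2 with signals of 17.9 to 19.8, Pax5 with 18.7 to 23.2 and Ngp with 13.5 to 18.7. There the background correction draws ratios toward 0, so a count of 0 does not show that such genes were unchanged. Others were brighter, such as S100a9 at 1957 to 2331 and Cd79b at 692 to 999. These 5 genes are named for their signals. The zeros also did not hold under every setting. With median centring 1 T and natural killer gene (Cd8a) and 1 B cell gene (Cd79b) were past it lower, and the medians were 0.04 for T and natural killer, -0.05 for B cell and 0.02 for neutrophil genes. In the scanner software's ratios the B cell median was -0.28 with 2 of 6 genes past the threshold lower, 1 T and natural killer gene was past it lower and 1 higher, and 1 neutrophil gene was past it higher. Lysosomal genes of all cells had a median of 0.00 over 13, or -0.23 with median centring.

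Markers of other cell types differed between the pools too. Of 5 measured mast cell genes, 4 were lower on both arrays, beside 37.9% of all genes. Of the 4, 3 were past the threshold lower, beside 2.94% of all genes. These were the proteases Cpa3 at -0.59, Cma1 at -0.53 and Mcpt4 at -0.50, as means of both arrays. Tpsb2 stood at -0.07 and -0.11. The remaining gene, Ms4a2, was higher on both at 0.20 and 0.27, with a mean of 0.62 in the scanner software's ratios. Signals of Cpa3, Mcpt4 and Ms4a2 were dim, between 41.0 and 186. Tpsb2 and Ms4a2 were named after their values were seen. Tpsab1 was not measured. The summed signal of the mast cell genes was 625 and 571 for mutant against 961 and 803 for WT RNA. Of 8 measured adipose tissue genes, 8 were lower on both arrays and 4 were past the threshold, Ucp1 at -1.17, Cidea at -0.95, Plin1 at -0.90 and Adipoq at -0.85. Their summed signal was 56455 and 52794 for mutant against 68619 and 62073 for WT RNA. Most of it came from Fabp4, a fatty acid carrier short of the threshold, at 51283 and 48298 against 59819 and 54176. Of 9 mesenchyme genes, 5 were lower on both arrays and 3 past the threshold (Lum at -0.86, Col3a1 at -0.52 and Dcn at -0.45), with sums of 338732 and 331886 against 388907 and 345563, in which the bright genes Col1a2 and Acta2 had opposite signs on the arrays. Of 5 measured erythroid genes, Slc4a1, an anion exchanger of red cells but not of these alone, was past the threshold at -0.61. The list's median was -0.08. The erythroid sums of 59086 and 59077 against 83767 and 79120 came almost wholly from the alpha globin gene Hba-a1, at 53269 and 53758 against 77287 and 73328, with ratios of -0.76 and -0.23, the second short of the threshold. Alas2 stood at -0.07, Klf1 at -0.08 and Epor at 0.22, and these genes were named after their values were seen. Endothelial genes had a median of -0.07 over 10 with none past the threshold, or -0.30 with 3 past it lower under median centring. The median of 10 kidney nephron genes was -0.01, and the water channel Aqp2 was past the threshold at 0.49. Under median centring the kidney median was -0.21, with none past the threshold higher and 2 lower. Pancreatic genes had a median of -0.02 over 9, or 0.08 with 1 past the threshold lower under median centring. The part of these cell types in the ratios of the leukocyte genes was not tested. Cd36, at -0.10, was counted among both macrophage and adipose genes.

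**Figure D4:**
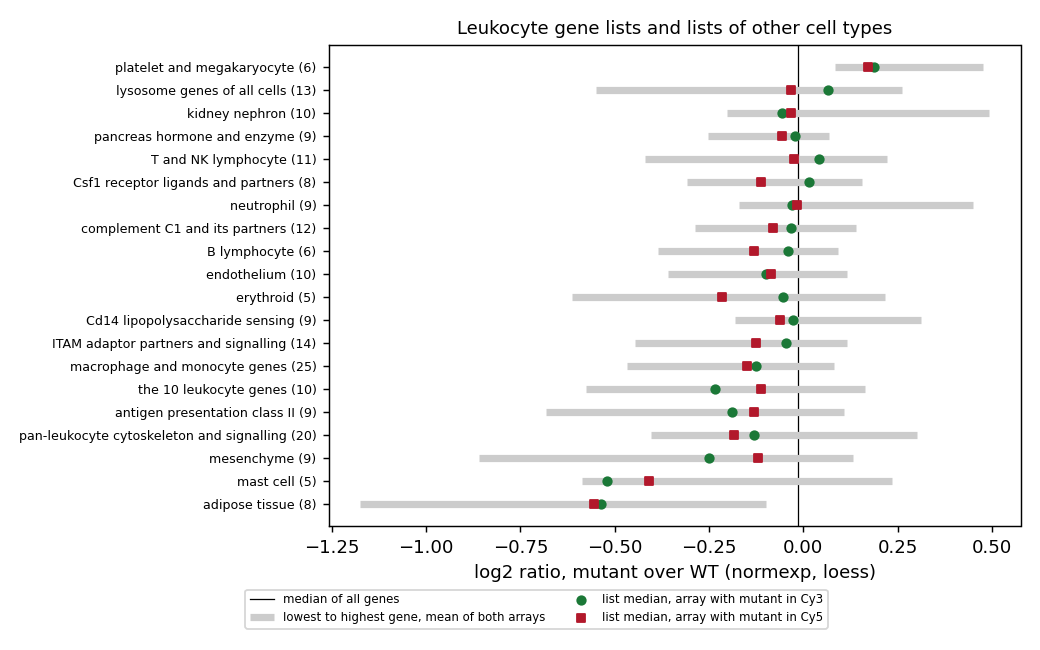
Median log2 ratio of mutant over WT (horizontal axis) of each gene list on the 2 arrays, with grey bars from the lowest to the highest gene and the number of measured genes in parentheses. The medians of macrophage, pan-leukocyte, class II, T, B and neutrophil genes over the mean of both arrays lie between -0.18 and -0.02, where T and neutrophil genes turn positive with median centring, and mast cell and adipose genes lie lowest.

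The direction of 6 of the 10 genes was the same under each of the 11 alternatives tried, namely Tyrobp, Fcer1g, Coro1a, Ptprc, Cd14 and Laptm5, lower in each. Some of these alternatives leave the values of the 10 genes unchanged and so are not separate checks. Tyrobp ranged from -0.75 to -0.55 and Fcer1g from -0.55 to -0.28. Csf1r changed sign under median centring, C1qb under median centring and without the Cy3 array, and C1qa and Cd68 without the Cy5 array.

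**Figure D5:**
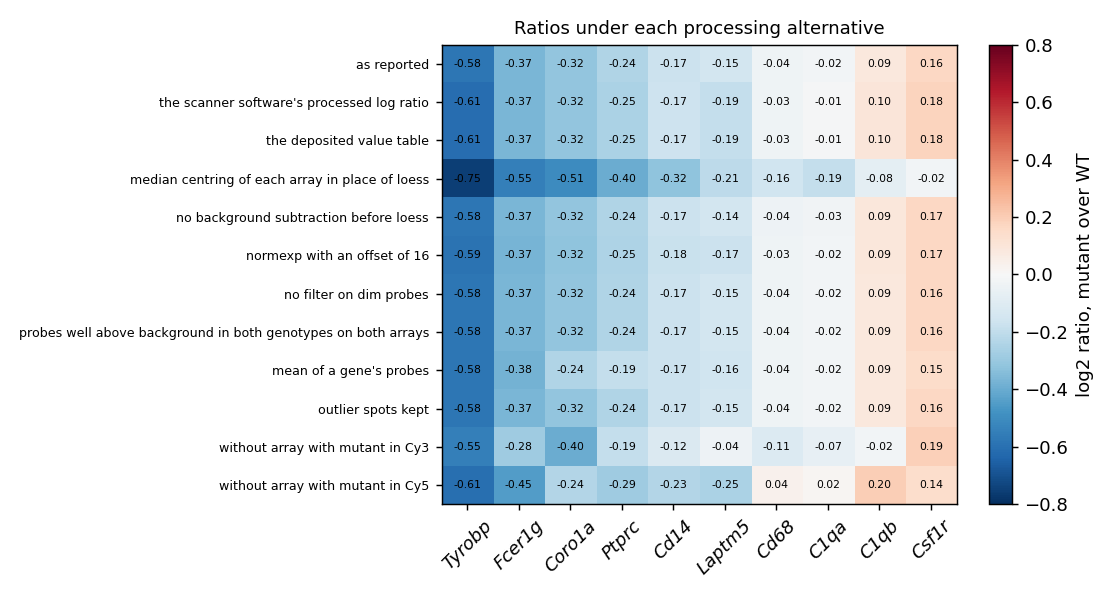
Log2 ratio of mutant over WT of each gene (columns) as reported and under each processing alternative (rows), with the value printed and coloured from blue (lower in mutant) to red (higher). Tyrobp is lowest in every row, and the values turn negative for Csf1r at -0.02 where each array was centred on its median.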

How the data were processed

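PND3 RNA (500 ng per labelling) was purified on Qiagen columns and then amplified with dye incorporation, per the labels' protocols. The spot, local background and processed intensities deposited by the authors came from Agilent Feature Extraction 9.1.3.1 with protocol GE2-v5_91_0806, per the file headers, whereas the submitters' processing notes name version 8.1. Processed signals are background-subtracted and dye-normalized, and the scanner's log10 ratio is Cy5 over Cy3, per the file headers. The deposited value table was found to hold log2 ratios, mutant over WT on each array, since its columns followed the scanner ratios (r = 0.9996 and 0.9997). Its column medians are 0, and how it was made was not stated in the sources used here.

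In R 4.3.3 with limma 3.58.1, normexp with an offset of 50 corrected the background, which draws dim ratios toward 0. Loess normalized each array, with control spots given weight 0, and the sign of the Cy3 array was turned. Outlier spots (18 and 26 of 43379) were left out, and spots of a probe were averaged. A gene counted as measured if 1 of its probes was well above background for at least 1 genotype on the 2 arrays alike, and its brightest such probe stood for it. The steps were tested on simulated data with changes larger than those of the members, called at 2-fold. That test does not bear on the 1.25-fold threshold used here. Of 41174 probes, 22944 matched a RefSeq symbol by accession. The RefSeq table (GRCm38.p6) gave names only, and unmatched probes kept theirs. A probe named Stra13 has the accession of another gene and was not counted as Laptm5.

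The members, the 19 other lists and the 1.25-fold threshold (0.32 on the log2 scale) were chosen with earlier results of these data known. Named genes were the members, Glis3 and up to 4 genes per list with the largest ratios past the threshold on both arrays. Others are named for their role, or, where only another setting or a sum names them, after their values were seen, and 1 gene that this rule names is not reported here. The E15.5 arrays were not used here, because their probe sets are not paired with gene names.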

Additional observations from a re-analysis of the deposited data

How the results depend on the processing

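The count of 1 leukocyte gene past the threshold of 0.32 in the lower direction on both arrays, the median of -0.16 over the 10 genes and the count of 1 in the macrophage list were kept, the counts exactly and the median within the spread of the arrays, under 7 alternatives. These were the scanner software's ratios, the value table, no background subtraction, an offset of 16, no filter, a stricter filter and outlier spots kept. They are not 7 separate checks. The value table follows the scanner ratios. The brightest probes of the 10 genes were well above background in both genotypes, so neither filter setting could change their values. Keeping outlier spots left these values unchanged too. With median centring the values were 4, -0.26 and 7, and 9.79% of all genes were past the threshold lower. With a gene's probes averaged the counts were 2 and 2, beside 2.42% of all genes. Without each array in turn the counts, then on a single array, were 2 for the 10 genes and 3 to 4 for the macrophage list, beside 5.17% of all genes without the Cy3 array and 6.15% without the Cy5 array. The number of the 10 genes whose arrays differed beyond the 95th percentile was 0 under each alternative that keeps both arrays. No paired analysis was possible because the PND3 arrays hold 1 pool per genotype. The comparison planned for the E15.5 samples, with its replicate block and other alternatives, was not run, since the probe sets had no names. Signal over background limits Laptm5 most, at 3.02 to 5.11 times the local background.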

Other observations

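Platelet and megakaryocyte genes had a higher median in the mutant pool. Of 6 genes, 6 were higher on both arrays by any amount, where 30.8% of all genes were, with a median log2 ratio of 0.13. The 6 include Gp5, which met the filter through the mutant pool alone, so its place in this count is no separate evidence. Its signals were 19.8 and 26.0 for mutant against 14.5 and 20.9 for WT RNA, and it is named after its values were seen. The chemokine Ppbp stood at 0.45 and 0.51 and the integrin chain Itga2b at 0.38 and 0.34, and these 2 were past the threshold of 0.32 on both arrays, where 1.84% of all genes were. Ppbp had scanner signals of 104 and 106 for mutant against 63.5 and 49.2 for WT RNA. The list was chosen with earlier results of these arrays known, and its genes are dim. With each array centred on its median 5 of the 6 were higher on both arrays and Ppbp alone was past the threshold, where 0.65% of all genes were, since Itga2b stood at 0.36 and 0.29. In the scanner software's ratios the median was 0.34 and 2 genes were past the threshold, where 4.22% of all genes were. Pf4, a platelet chemokine that some tissue macrophages also make and that was counted with the macrophage list, stood at -0.03 and 0.16.

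The neutrophil list held a gene far from the rest in Lcn2, an iron-siderophore carrier that injured epithelia also make, named after its values were seen. Its log2 ratios were 0.31 and 0.59, just short of the threshold on the Cy3 array. Its signals were 170 and 157 for mutant against 113 and 86.6 for WT RNA. The other 8 measured neutrophil genes had mean ratios between -0.17 and 0.07. Part of the 8 was dimmer, such as Camp at 21.5 to 34.8, and the background correction draws such ratios toward 0. In the scanner software's ratios the 8 ran from -0.50 for Camp to 0.16 for Mpo, against 0.72 for Lcn2. Camp and Mpo are named after their values were seen.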
